A study of Rattus norvegicus with 6 samples.

Results

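The CaM kinase, PKA, PKC and serine/threonine phosphatase genes of rat spinal cord were compared between contused cord, taken at the epicenter on day 35, and uninjured cord. Members were all probe sets with a single annotated gene whose symbol starts with Camk, Prka, Prkc or with Ppp and a digit. This gave 91 of the 8799 probe sets on the array, for 57 of 4737 singly named genes: 24 probe sets of 12 Camk genes, 12 of 10 Prka genes, 14 of 6 Prkc genes and 41 of 29 Ppp genes. The epicenter is the tissue directly under the impact. Total RNA was taken near thoracic segment 8 and hybridised to 6 one-colour arrays, 3 of contused and 3 of uninjured cord. The titles of the uninjured arrays name no sham operation and no day, and no strain, sex or age is given, so surgery, elapsed time and injury cannot be told apart here. Whether every array came from its own animal is left unsaid in the labels; if not, the p-values reflect only array-to-array spread, part of which may be technical.

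These enzymes add phosphate to, or remove it from, serines and threonines of other proteins. CaM kinases respond to calcium bound to calmodulin. PKA (protein kinase A) is held inactive by regulatory subunits that cyclic AMP releases, and PKC (protein kinase C) enzymes are opened by diacylglycerol and, in the conventional class, by calcium. Protein phosphatases consist of a few catalytic subunits steered by many regulatory ones. In neurons these pathways act on ion channels, receptors and the cytoskeleton, and several isoforms, such as the PKA subunit Prkar1b and the CaMKII subunits Camk2a and Camk2b, are known to be far more abundant in neurons than in other cells. The prefix Prka also takes in subunits of AMPK (Prkaa1, Prkaa2, Prkab1, Prkag1), the energy-sensing kinase, which is not PKA. The catalytic subunit gene Ppp2ca is not a member, since the annotation assigns its 2 probe sets to several genes.

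Upstream sequence is shown for those genes with a called change whose start site is the first base of the annotated gene. Start sites are from the RefSeq promoter table (build GRCr8), and the window thus lies outside the gene. Each gene shown had a probe set called lower after contusion. Camkv and Ppp2r1a also had 1 tested probe set each without a call. Each sequence is the 250 bases before the start, 5′ to 3′ on the gene's strand. The TATA box, the PU.1 core, the GC box and the cyclic AMP core were searched on either strand, and those present are in capitals: the GC box GGGCGG, a binding site of Sp-family factors, and the cyclic AMP response element core TGACG, which overlap nowhere in these windows. The windows are chr19:41083190-41083439 on the minus strand for Prkaca (a PKA catalytic subunit), chr8:117505189-117505438 on the plus strand for Camkv (a kinase-like protein) and chr1:69212948-69213197 on the plus strand for Ppp2r1a (the PP2A scaffold).

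Prkaca: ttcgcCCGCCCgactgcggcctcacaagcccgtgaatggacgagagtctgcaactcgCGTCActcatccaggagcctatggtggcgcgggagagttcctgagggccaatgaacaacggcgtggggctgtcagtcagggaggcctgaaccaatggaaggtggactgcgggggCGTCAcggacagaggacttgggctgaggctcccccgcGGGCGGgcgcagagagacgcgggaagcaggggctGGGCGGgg
Camkv: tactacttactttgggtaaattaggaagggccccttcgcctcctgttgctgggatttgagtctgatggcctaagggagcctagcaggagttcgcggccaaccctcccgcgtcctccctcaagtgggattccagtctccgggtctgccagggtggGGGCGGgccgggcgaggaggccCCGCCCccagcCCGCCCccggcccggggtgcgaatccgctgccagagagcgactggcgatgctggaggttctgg
Ppp2r1a: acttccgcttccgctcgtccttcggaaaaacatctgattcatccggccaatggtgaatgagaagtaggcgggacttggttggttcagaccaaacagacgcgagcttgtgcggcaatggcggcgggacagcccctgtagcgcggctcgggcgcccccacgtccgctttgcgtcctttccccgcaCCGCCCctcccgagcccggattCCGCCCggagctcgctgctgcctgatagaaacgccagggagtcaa

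Each of these windows held a GC box, and that of Prkaca also held the TGACG core at 2 places. Across the 47 of 57 member genes with an entry in the table, 34 had a GC box in the 250 bases before the start, against 32.4% of all 27457 promoters. The count was 10 of 12 for genes with a probe set that fell, 3 of 4 for genes that rose and 18 of 25 for genes tested without a call. The TGACG core was found in 15 of 47, against 19% of all promoters, and the TATA box TATAAA in 4 of 47, against 13.1%. The PU.1 core GAGGAA, a site of a myeloid factor, was found in 7 of 47, against 23.2%. Median GC content was 67.6% for the members and 52% for all promoters. A match is a run of letters and not a measured binding site.

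Signals are the deposited intensities on a linear scale. Values under 61.6 (log2 5.94), the 25th percentile of all values, were set to that floor before log2 was taken, and probe sets above it on 3 or more of the 6 arrays were tested. Changes were tested with limma over all 6705 probe sets that passed, and a change was called at a Benjamini-Hochberg adjusted p of 0.05. Median signals ran from 122 to 127 per array. Of the marker genes tested, 12 of 12 for neurons were lower after contusion, with a summed signal of 18299 to 21358 on the uninjured and 8856 to 9405 on the contused arrays; Syt1 was under the floor on every array. For microglia and macrophages 11 of 12 were higher (3545 to 4112 on the uninjured and 9454 to 9989 on the contused arrays). Oligodendrocyte markers were lower in 5 of 8 cases and astrocyte markers higher in 2 of 9. Of endothelial and Schwann cell markers 0 of 6 and 0 of 5 were called. Of T and B cell markers 1 of 6 was higher (Cd4), and of skeletal muscle markers 2 of 7 were lower (Tnnc2 and Pvalb). In bulk tissue, fewer cells of a type and less RNA per cell cannot be told apart. The part of these shifts in cell markers in the changes below was not tested.

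Among the kinase and phosphatase probe sets called after contusion, more were lower than higher. Of the 91 member probe sets, 72 for 50 genes passed the filter on dim values. Of these 72, 22 (30.6%) passed the threshold, 17 lower and 5 higher, where 17.4% of all tested probe sets passed, 9.59% lower and 7.79% higher. The balance over all probe sets depended on scaling: 643 were lower and 522 higher on the values as deposited, and 582 lower and 627 higher with the arrays scaled to one trimmed mean. The median log2 change of the members was -0.14, against -0.01 over all probe sets tested. The called probe sets stood for 14 genes with a probe set that fell (Camk2d, Camk2n1, Camk2n2, Camkk1, Camkv, Prkaca, Prkacb, Prkar1b, Prkcb, Ppp1r16b, Ppp2r1a, Ppp2r2b, Ppp3ca, Ppp3r1) and 4 that rose (Prkcd, Prkab1, Ppp1r12a, Ppp4r3b). Of 19 genes with several tested probe sets, 7 had both a fall and a probe set without a call. These were Camk2d, Camk2n1, Camkv, Prkacb, Prkcb, Ppp2r1a and Ppp3r1. For Camk2d, Camk2n1, Camkv and Ppp3r1 the brightest probe set was not called. All 3 contused arrays lay below all 3 uninjured arrays in 22 of the 72 probe sets and above them in 7, against 18.2% and 16.6% of all probe sets tested. The families differed in their counts: 5 lower and 0 higher of 14 for Camk, 4 lower and 1 higher of 9 for Prka, 2 lower and 2 higher of 11 for Prkc, and 6 lower and 2 higher of 38 for Ppp. Both Ppp rises (Ppp1r12a and Ppp4r3b) were lost without the floor, with quantile normalization, without the intensity trend and with the replicate block. Neither was among the calls with a higher floor or a filter of all 6 arrays. The Ppp share, 21.1%, was near the 17.4% of all probe sets. Counted with 1 probe set per gene, the tested one with the highest mean, 10 of 50 genes were lower and 4 higher, against 392 lower and 277 higher of 3955 genes. By family, calls were 2 of 9 genes for Camk (22.2%), 4 of 7 for Prka (57.1%), 2 of 6 for Prkc (33.3%) and 6 of 28 for Ppp (21.4%). Of all 3955 genes 16.9% were called, so the Camk share was near that of all genes when counted this way.

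**Figure D1:**
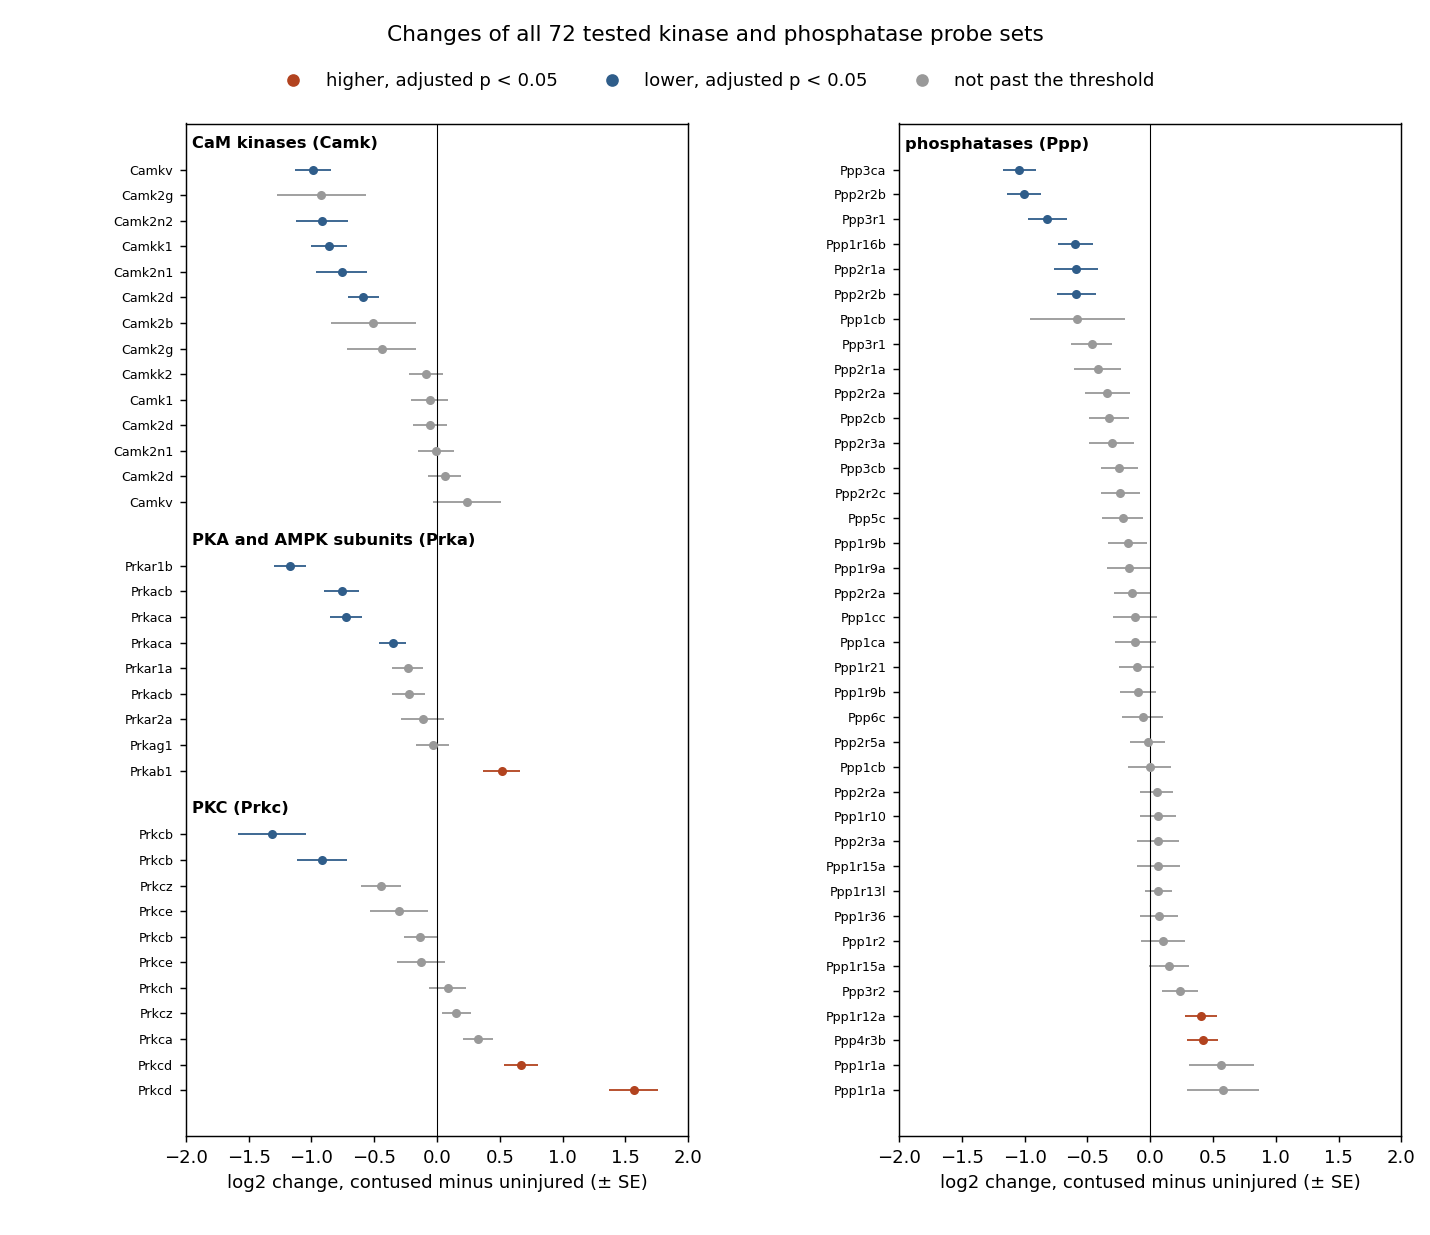
Log2 change of each of the 72 tested member probe sets (points, contused minus uninjured; bars are standard errors from limma), grouped by family and ordered by size; a gene with several probe sets appears several times. Changes run from -1.32 for a Prkcb probe set to 1.56 for a Prkcd probe set, and the 50 grey points were not called.

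**Figure D2:**
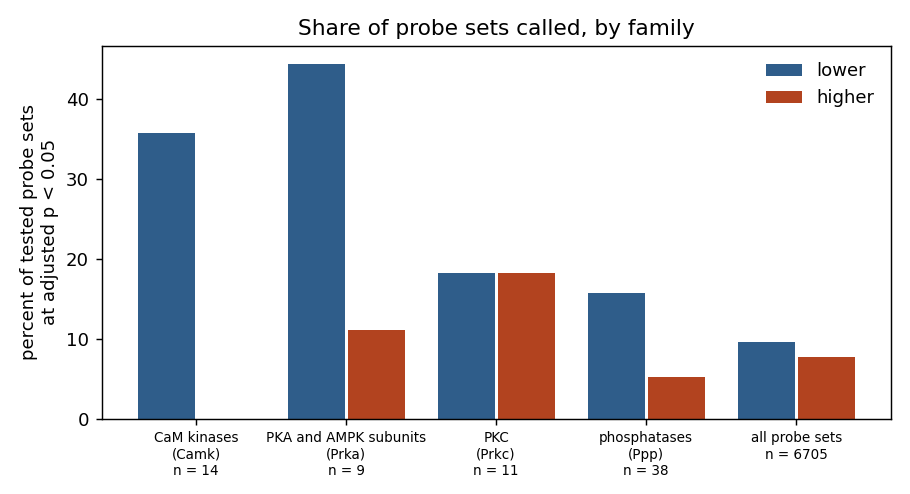
Percent of tested probe sets called lower (blue) or higher (red) at an adjusted p of 0.05 in each family and over all probe sets tested (n below each group). In Camk and Prka 35.7% and 44.4% were lower, beside 9.59% of all probe sets, while Prkc had 18.2% in each direction.

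In the PKA group both catalytic subunit genes and 1 regulatory subunit gene fell. Prkar1b, which encodes the regulatory subunit RI-beta of neurons, gave signals of 1821, 1792 and 1854 on the uninjured arrays and 917, 706 and 819 on the contused arrays. The uninjured arrays lay close together and all contused arrays far below them. Its signal fell 2.25-fold, from 1822 ± 30.8 to 814 ± 106 (SD, n = 3; log2 change -1.17, SE 0.13, limma adjusted p = 0.000195), the smallest p of any member.

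Prkaca, the catalytic subunit C-alpha, whose upstream sequence is shown above, gave 726, 703 and 786 on the uninjured and 420, 436 and 484 on the contused arrays. The groups were well apart, with a 1.65-fold fall (log2 change -0.73, SE 0.13, limma adjusted p = 0.00315). Its dimmer probe set, near the floor on the contused arrays, had a log2 change of -0.35. Prkacb, the catalytic subunit C-beta, gave 1110, 1208 and 1165 on the uninjured and 625, 619 and 830 on the contused arrays, a 1.69-fold fall (limma adjusted p = 0.00452). Contused array 3 was the highest of its group and still below every uninjured array. The dimmer Prkacb probe set had a log2 change of -0.23 and was not called (adjusted p = 0.288), although its groups did not overlap. The within-array log2 difference of Prkaca minus Prkacb, taken from the brighter probe set of each, shifted by 0.03 ± 0.10 (SE), with an exact two-sided permutation p of 0.7.

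The other regulatory subunits had smaller changes than Prkar1b or were not tested, and none of them was called. Prkar1a, or RI-alpha, gave 965, 1132 and 1022 on the uninjured and 928, 898 and 824 on the contused arrays (log2 change -0.23, SE 0.12, limma adjusted p = 0.23). Its groups just failed to overlap. Prkar2a, or RII-alpha, had a log2 change of -0.12 (adjusted p = 0.707). Prkar2b, or RII-beta, lay under the floor on all 6 arrays and was not tested.

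Of the AMPK subunits 1 of 2 tested was called. Prkab1, a beta subunit that holds the complex together, rose 1.43-fold, from 129, 153 and 122 on the uninjured arrays to 179, 192 and 205 on the contused arrays (limma adjusted p = 0.0369). All contused arrays lay above all uninjured ones. Prkag1, a gamma subunit that senses AMP, gave 323 ± 3.96 in uninjured and 315 ± 20.1 in contused cord (log2 change -0.04, adjusted p = 0.892). The catalytic genes Prkaa1 and Prkaa2 were above the floor on 0 and 2 of 6 arrays and were not tested. The calls of Prkab1 and of the dimmer Prkaca probe set were weak: that of Prkab1 was lost without contused array 1, 2 or 3 (adjusted p = 0.0578, 0.106 and 0.083) or uninjured array 1 or 3 (0.102 and 0.156), and that of the Prkaca probe set without contused array 1 or 2 (0.0927 and 0.127) or uninjured array 1, 2 or 3 (0.116, 0.119 and 0.0786). The Prka count was then 3 without contused array 1 or 2 or without uninjured array 1 or 3.

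**Figure D3:**
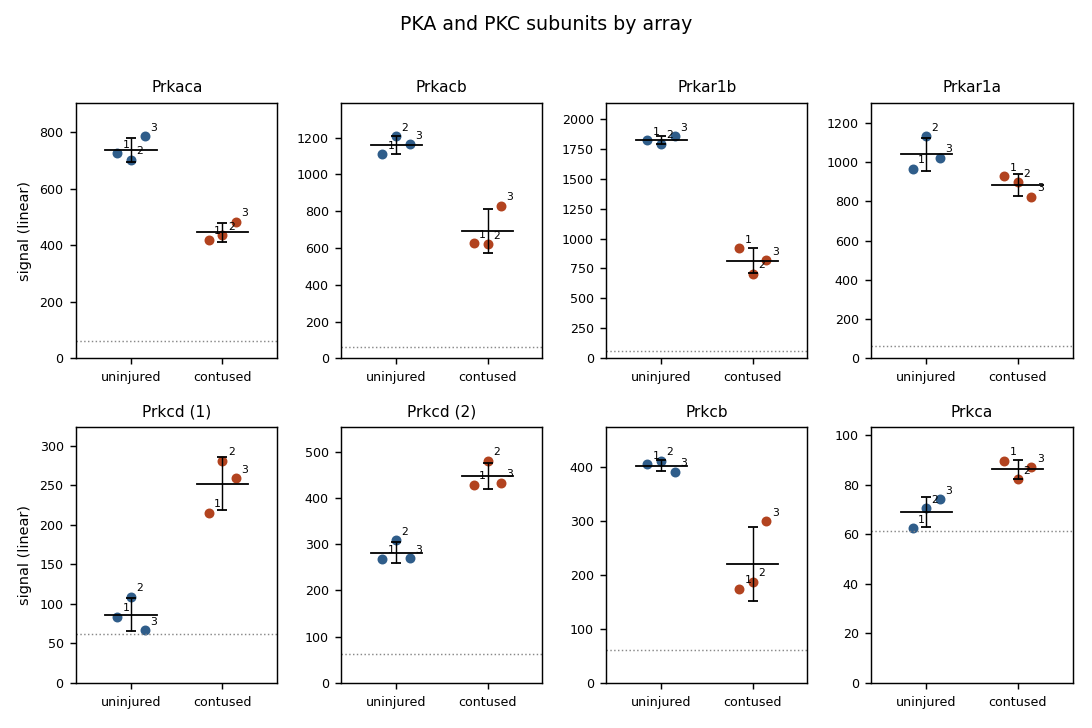
Signal (linear scale) of 8 PKA and PKC probe sets on each array, numbered by replicate, with group means (horizontal lines) and SDs (vertical bars, n = 3); the dotted line is the floor of 61.6. Prkaca, Prkacb, Prkar1b and Prkcb lie lower on the contused arrays and both Prkcd probe sets higher, while Prkar1a and Prkca were not called.

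Within PKC, isoforms went in opposite directions. Prkcd, the delta isoform, a calcium-independent PKC of many cell types including myeloid cells, rose on both of its probe sets. On the dimmer one, the uninjured arrays gave 83.7, 109 and 66.4 and the contused arrays 215, 281 and 259. The lowest contused array lay well above the highest uninjured one, a 2.96-fold rise (log2 change 1.56, SE 0.20, limma adjusted p = 0.000451). On the brighter probe set the uninjured arrays gave 268, 308 and 269 and the contused arrays 429, 480 and 432, a 1.59-fold rise (adjusted p = 0.00683). The same direction on both came with unequal size. Microglia and macrophage markers were higher on the same arrays (11 of 12), and their part in the rise of Prkcd was not tested.

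Prkcb, the beta isoform, a conventional PKC of neurons and lymphoid and myeloid cells, fell on 2 of its 3 tested probe sets. The brightest gave 405, 411 and 391 on the uninjured and 174, 187 and 299 on the contused arrays, a 1.88-fold fall (log2 change -0.91, SE 0.20, limma adjusted p = 0.00992). Contused array 3 lay between the other contused arrays and the uninjured group. Another probe set gave 221, 307 and 205 on the uninjured and 42.7, 107 and 136 on the contused arrays, a 2.49-fold fall with contused array 1 under the floor (adjusted p = 0.00773). The last Prkcb probe set, at 214 ± 10.4 in uninjured and 195 ± 7.06 in contused cord, was not called (log2 change -0.13, adjusted p = 0.567). The call of the brightest probe set was lost without contused array 2 (adjusted p = 0.0523).

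Prkca, the alpha isoform and the other conventional PKC on the array, gave 62.5, 70.6 and 74.2 on the uninjured and 89.8, 82.3 and 87.2 on the contused arrays. All contused arrays lay above the uninjured ones, but the change was not called (log2 change 0.33, SE 0.12, limma adjusted p = 0.0845). The within-array log2 difference of the brightest Prkcb probe set minus Prkca shifted by -1.24 ± 0.26 (SE) with contusion. Its groups did not overlap, and the exact two-sided permutation p of 0.1 is the smallest that 3 against 3 arrays allow. Prkcz, an atypical isoform that needs neither calcium nor diacylglycerol, had log2 changes of -0.45 on its brighter and 0.15 on its dimmer probe set, neither called (adjusted p = 0.0765 and 0.408). Without uninjured array 1 the brighter one was called (log2 change -0.57, adjusted p = 0.046). Prkce (epsilon) had log2 changes of -0.13 and -0.30 on its tested probe sets and Prkch (eta) 0.08, none called.

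The CaM kinase group held only falls among its called probe sets. Camkk1, a kinase that switches on CaM kinases I and IV, gave 383, 410 and 454 on the uninjured and 216, 216 and 258 on the contused arrays. The groups were wide apart, with a 1.81-fold fall (log2 change -0.86, SE 0.14, limma adjusted p = 0.00242). Its relative Camkk2 had a log2 change of -0.09 (adjusted p = 0.729), and Camk1, a target of both, of -0.06 (adjusted p = 0.833). Camkv, a vesicle-associated protein with a kinase fold, gave 156, 180 and 165 on the uninjured and 92.6, 74.2 and 86.1 on the contused arrays, a 1.98-fold fall (adjusted p = 0.00104). Its other probe set ran from 78.7 to 159 on the uninjured and from 98.4 to 173 on the contused arrays, overlapping throughout, and was not called (log2 change 0.24, adjusted p = 0.61).

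Both genes for small protein inhibitors of CaMKII fell. Camk2n2 gave 368, 336 and 353 on the uninjured and 141, 176 and 261 on the contused arrays, a 1.89-fold fall (log2 change -0.92, SE 0.21, limma adjusted p = 0.0121). Contused array 3 again was the highest of its group. For Camk2n1 the probe sets disagreed: the dimmer fell 1.69-fold, from 380 ± 98.4 to 220 ± 30.8 (adjusted p = 0.0278), and the brighter gave 1172 ± 162 in uninjured and 1164 ± 155 in contused cord (log2 change -0.01, adjusted p = 0.974). The call of Camk2n2 was lost without contused array 2 (adjusted p = 0.0557), and that of Camk2n1 without contused array 1 or 2 (0.105 and 0.1) or uninjured array 2 or 3 (0.107 and 0.116).

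For the CaMKII subunits themselves, 1 of 6 tested probe sets was called. Camk2b, the beta subunit, which ties the enzyme to actin, gave 285, 769 and 852 on the uninjured and 411, 358 and 443 on the contused arrays. Uninjured array 1 was the lowest of all 6, the other two uninjured arrays were the highest, and the change was not called (log2 change -0.51, SE 0.34, limma adjusted p = 0.356). Camk2g, the gamma subunit, also had array 1 as the lowest of the uninjured arrays on both probe sets. The brighter one gave 405, 791 and 900 on the uninjured and 400, 477 and 603 on the contused arrays (log2 change -0.44, limma adjusted p = 0.314). The dimmer one gave 91.1, 280 and 259 on the uninjured and 85.7, 105 and 107 on the contused arrays (log2 change -0.92, limma adjusted p = 0.105). With the replicate number as a block, the adjusted p of the dimmer one was 0.0203. Without uninjured array 1, Camk2b fell (log2 change -1.01, adjusted p = 0.00378), as did both Camk2g probe sets (-0.79 and -1.44, adjusted p = 0.0268 and 0.00098), and the Camk count was 8 in place of 5. Without contused array 2 it was 3. The within-array log2 difference of Camk2b minus the brighter Camk2g probe set shifted by -0.07 ± 0.22 (SE; exact two-sided permutation p = 1, with 0.1 the smallest possible), which leaves room for a difference in either direction.

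Camk2d, the delta subunit, found in many tissues, was measured by 6 probe sets, of which 3 were tested. The brightest gave 406, 486 and 450 on the uninjured and 398, 421 and 472 on the contused arrays, overlapping fully (log2 change -0.06, limma adjusted p = 0.829). A dimmer one fell from 85.7, 107 and 95.4 to 68.5, 56.2 and 54.7 (log2 change -0.59, adjusted p = 0.00918), with 2 of 3 contused arrays under the floor, and the remaining tested one had a log2 change of 0.06. Camk2a, the alpha subunit of forebrain neurons, lay under the floor on all arrays with both probe sets, as did 1 of 2 Camk4 probe sets; the other Camk4 probe set and Camk1g were above it on 1 array. None of these 3 genes was tested.

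**Figure D4:**
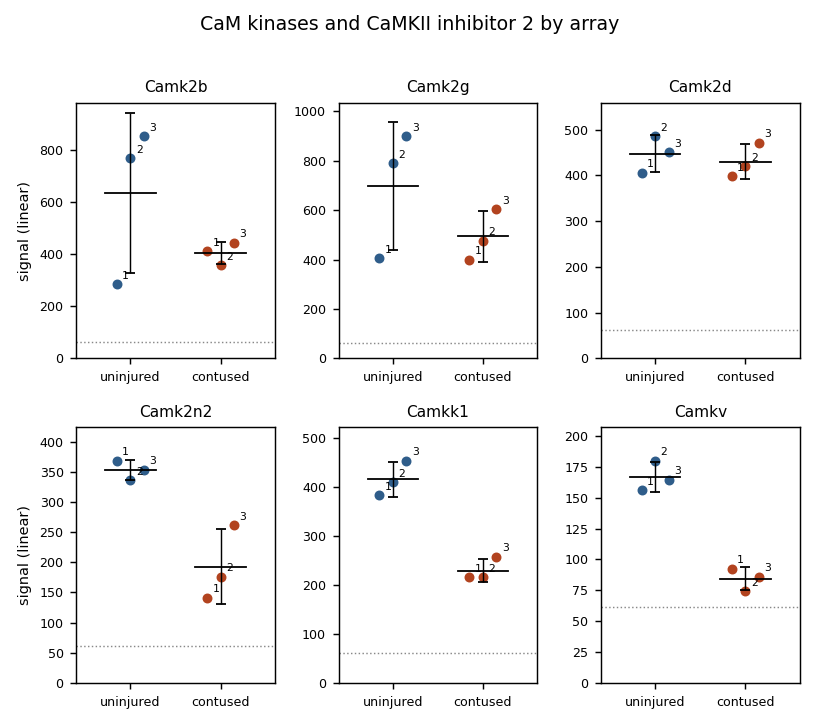
Signal (linear scale) of 6 probe sets of CaM kinase genes on each array, numbered by replicate, with group means (horizontal lines) and SDs (vertical bars, n = 3); the dotted line is the floor of 61.6. Camk2n2, Camkk1 and Camkv separate the groups, while for Camk2b and Camk2g uninjured array 1 (285 and 405) sits with the contused arrays.

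Among phosphatases, the 6 probe sets that fell were 2 of 5 for calcineurin, 3 of 12 for PP2A and 1 of 14 for PP1 regulators. Calcineurin is the calcium-activated phosphatase, built of a catalytic A and a regulatory B subunit. Ppp3ca, catalytic subunit A-alpha, gave 682, 769 and 784 on the uninjured and 368, 335 and 383 on the contused arrays. The groups were far apart and each tight, with a 2.06-fold fall (log2 change -1.04, SE 0.13, limma adjusted p = 0.000442). Ppp3r1, the B subunit, fell 1.76-fold on 1 probe set, from 181, 196 and 197 to 91.9, 112 and 123 (adjusted p = 0.00453). On its other probe set the groups did not overlap but the change was not called (log2 change -0.47, adjusted p = 0.0781). Ppp3cb, catalytic subunit A-beta, gave 86.7, 72 and 85.2 on the uninjured arrays and, on the contused arrays, 84.2 on array 3 and values under the floor on the others (log2 change -0.25, adjusted p = 0.308). The within-array log2 difference of Ppp3ca minus Ppp3cb had a shift of -0.80 with Ppp3cb set to the floor on 2 contused arrays and of -0.53 without the floor (exact two-sided permutation p = 0.1, the smallest possible, and 0.2), so its size is not well measured. Ppp3r2, the B subunit known from testis, was under the floor on all uninjured and above it on all contused arrays, at 73.7 ± 15.7, and was not called (adjusted p = 0.302), but was without the floor (log2 change 0.78, adjusted p = 0.0283).

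PP2A is a trimer of a scaffold, a catalytic and a variable B subunit. Ppp2r2b, a B subunit of neurons, fell on both probe sets. The brighter gave 579, 695 and 589 on the uninjured and 299, 326 and 300 on the contused arrays, a 2.01-fold fall (log2 change -1.01, SE 0.13, limma adjusted p = 0.000635). The dimmer fell 1.51-fold (adjusted p = 0.0244). The B subunit genes Ppp2r2a, Ppp2r2c, Ppp2r3a and Ppp2r5a were not called: the brightest Ppp2r2a probe set gave 520 ± 32.1 in uninjured and 540 ± 47.3 in contused cord (log2 change 0.05), and Ppp2r2c had a log2 change of -0.24, Ppp2r3a of 0.06 and -0.31 on its probe sets and Ppp2r5a of -0.02. Ppp2r1a, the scaffold, fell 1.51-fold on 1 probe set, from 1276, 1336 and 1364 to 668, 907 and 1119 (adjusted p = 0.0392). On the other, uninjured array 1 at 800 lay below all contused arrays (830, 833 and 859) and the remaining uninjured arrays at 1384 and 1282 above them, with no call (log2 change -0.42, adjusted p = 0.164); without uninjured array 1 it was called (-0.66, adjusted p = 0.0122). Ppp2cb, a catalytic subunit, had a log2 change of -0.33 (adjusted p = 0.198).

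Catalytic subunits of PP1, the phosphatase with the most regulatory partners, were not called on any of 4 probe sets. Ppp1cc, the gamma isoform, gave 603, 635 and 579 on the uninjured and 441, 537 and 728 on the contused arrays, a wide contused spread around the uninjured values (log2 change -0.12, SE 0.18, limma adjusted p = 0.703). Ppp1ca (alpha) had a log2 change of -0.12 and the brighter Ppp1cb probe set (beta) of less than 0.01 in size. The dimmer Ppp1cb probe set had a log2 change of -0.58 (adjusted p = 0.341); without contused array 3 it was called (-1.12, adjusted p = 0.00667). Of 14 tested probe sets of PP1 regulators, 1 was lower and 1 higher. Ppp1r16b, a regulator known from endothelial cells, fell 1.51-fold, from 674, 769 and 682 to 446, 421 and 546 (adjusted p = 0.0153), and Ppp1r12a, the myosin-targeting subunit, rose 1.32-fold, from 73.7 ± 6.36 to 97.5 ± 6.84 (adjusted p = 0.0482).

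The other PP1 regulators were not called. Ppp1r1a (inhibitor-1, which blocks PP1 once PKA has phosphorylated it) had the largest positive log2 changes in the family, 0.58 and 0.57, with uninjured arrays that spread from 126 to 320 and contused arrays from 275 to 368 on the dimmer probe set (limma adjusted p = 0.202). The brightest, Ppp1r9b (spinophilin, which brings PP1 to dendritic spines), gave 748 ± 79.5 in uninjured and 663 ± 107 in contused cord (adjusted p = 0.489). Ppp1r15a, Ppp1r2, Ppp1r10, Ppp1r13l, Ppp1r21, Ppp1r36 and Ppp1r9a had log2 changes between -0.17 and 0.15, and Ppp1r3b was not tested. Outside PP1 and PP2A, Ppp4r3b, a regulator of PP4, rose 1.34-fold, from 54.2, 74.7 and 60.1 to 82.2, 93 and 88.3 (adjusted p = 0.0412), near the floor, while Ppp5c and Ppp6c had log2 changes of -0.22 and -0.06.

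Of the 8 phosphatase calls, those of Ppp3ca, Ppp3r1 and the brighter Ppp2r2b probe set held with any array left out. Without contused array 1, 2 or 3 the family had 4, 3 and 7 calls and without uninjured array 1, 2 or 3 it had 5, 7 and 3. These include probe sets that were not called when all 6 arrays were used: 1 of Ppp1cb without contused array 3, 1 of Ppp2r1a without uninjured array 1, and both of Ppp1r1a, which rose without uninjured array 2 (log2 changes 0.91 and 0.85, limma adjusted p = 0.0408 and 0.0436), so that 5 of the original 8 calls were kept in that last case. Ppp1r12a lost its call in each of these cases (limma adjusted p = 0.0542 to 0.144), and Ppp2r1a in all but the one without contused array 3 (0.0835 to 0.13). Ppp4r3b was called only without contused array 1 or uninjured array 2 (otherwise 0.0642 to 0.163), Ppp1r16b only without contused array 3 or uninjured array 1 (otherwise 0.0517 to 0.0702) and the dimmer Ppp2r2b probe set only without contused array 3 or uninjured array 2 (otherwise 0.0817 to 0.0897).

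**Figure D5:**
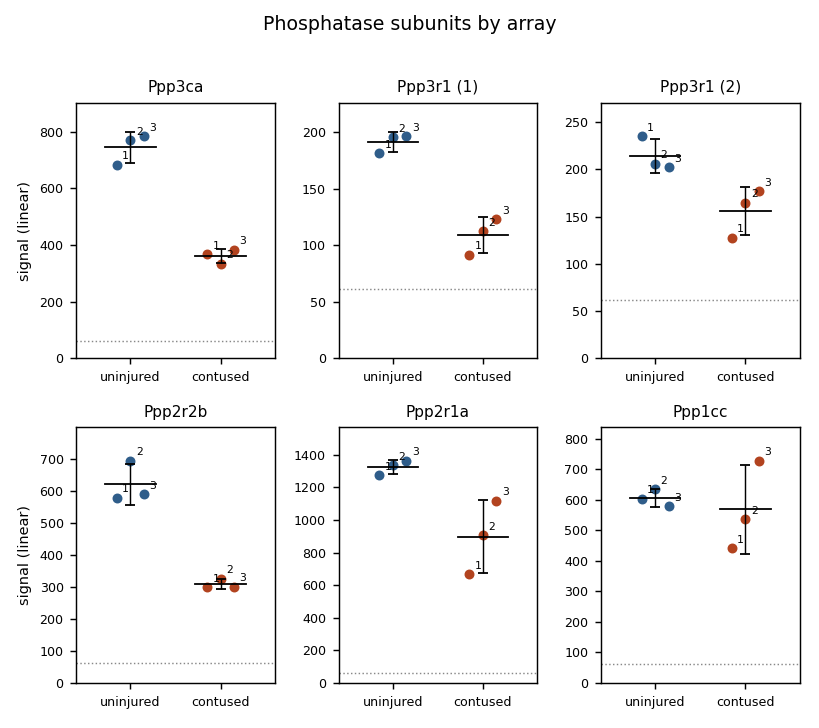
Signal (linear scale) of 6 phosphatase probe sets on each array, numbered by replicate, with group means (horizontal lines) and SDs (vertical bars, n = 3); the dotted line is the floor of 61.6. Ppp3ca and Ppp2r2b drop about 2-fold with no overlap, whereas Ppp1cc spreads from 441 to 728 on the contused arrays around the uninjured values.

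Genes that work with these enzymes were counted from lists by function, each gene by its brightest tested probe set. Counted that way, 16.9% of all 3955 singly named genes were called, 392 lower and 277 higher. The lists are short, and their counts carry no test against that share. Of 5 tested genes for calmodulin, calmodulin-binding proteins and their relatives 3 were lower and 0 higher, with a median log2 change of -1.22. Nrgn and Pcp4, small proteins that hold calmodulin in neurons, and Pcp4l1 had log2 changes of -2.06, -1.41 and -1.22 (limma adjusted p = 6.15e-05, 6.82e-05 and 0.000373). Every contused array was under the floor for Nrgn, so its signal was at least 4.17-fold lower. Among genes picked after their values were seen, Gap43, the growth-cone protein that binds calmodulin and is a PKC substrate, gave 578 ± 23.7 in uninjured and 578 ± 11.1 in contused cord, and Calm2, a calmodulin gene, had a log2 change of -0.46 (adjusted p = 0.101).

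Of 10 tested PKA anchors and inhibitors 3 were lower and 1 higher (median log2 change -0.25). Pkia, the heat-stable PKA inhibitor, fell 1.87-fold, from 379 ± 13.4 to 202 ± 6.68 (limma adjusted p = 0.000967). The anchors Map2, of dendritic microtubules, and Akap12, also called gravin, fell 2.09-fold and 1.81-fold, while Ezr (ezrin), which links membrane to actin, rose 1.69-fold. For PKC substrates, partners, diacylglycerol kinases and phospholipases C, 2 of 15 were lower and 2 higher (median -0.04). Plcl1, an inactive relative of phospholipase C that binds PP1, fell 2.32-fold and Plcb1 1.55-fold, whereas Dgkg, a diacylglycerol kinase, rose 1.89-fold and Rack1, a scaffold for active PKC, 1.48-fold.

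No call was made among 7 tested phosphatase regulators outside the family (median log2 change -0.06), of which Cabin1, a calcineurin inhibitor, was the brightest with 0.16, nor among 4 tested transcription factors that these pathways act on, Creb1 (0.02), Crem (-0.13), Atf2 (-0.02) and Mef2d (-0.01); no NFAT gene was tested. Among 18 related kinases 3 were higher and 3 lower. Sgk1, induced by glucocorticoids and stress, rose 2.83-fold, from 166 ± 18 to 470 ± 50.9 (limma adjusted p = 0.000122), Akt2 1.43-fold and Mapkapk2 1.36-fold. Cdk5, a kinase of neurons, fell 1.59-fold, Gsk3a 1.5-fold and Pdpk1 1.38-fold. With all arrays used, Rack1 and Mapkapk2 lost their calls under the higher floor (limma adjusted p = 0.0506 and 0.0633). Mapkapk2 also lost its call with the replicate block (0.0704). Pdpk1 lost its call with scaling by trimmed mean and without the floor (0.0588 and 0.0531). Rack1, Plcb1, Mapkapk2, Akt2, Gsk3a, Pdpk1 and Cdk5 all lost their calls without uninjured array 3 (adjusted p = 0.144, 0.0663, 0.139, 0.0922, 0.0754, 0.0827 and 0.0758, in that order). Mapkapk2 lost its call with any array left out (0.0647 to 0.139), Rack1 and Pdpk1 with any but uninjured array 2 (0.0692 to 0.144 and 0.0578 to 0.085), Plcb1 also without contused array 2 (0.0534), Akt2 without contused array 2 or uninjured array 1 (0.0702 and 0.0607), Gsk3a without uninjured array 2 (0.0516) and Cdk5 without contused array 1 or uninjured array 2 (0.0721 and 0.0738).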

How the data were processed

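The authors' deposited values are intensities on a linear scale, 1 per probe set and array, with 21 to 32 values below 0 per array. Probe summary, background subtraction and array scaling are steps not given in the sources used here. Trimmed means (2% off each end) were 209 to 228 per array, so the values were used without further scaling. Of 8799 probe sets, 59 controls were left out. Array symbols were checked through gene identifiers against GRCr8 names (6994 matched); no member's symbol changed.

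Changes were fitted with limma 3.58.1 in R 4.3.3 (lmFit, eBayes with an intensity trend, two-sided, 4 residual degrees of freedom) on all probe sets at once; a log2 change understates a difference where values sit at the floor. Folds are 2 to the power of the log2 change. Isoform pairs were compared by the within-array log2 difference with an exact permutation test, 5 pairs in all, with Benjamini-Hochberg adjusted p-values of 0.25 for Prkcb minus Prkca and for Ppp3ca minus Ppp3cb and 1 for the rest. The other 4 pairs listed could not be compared, since a gene was not tested or is not a member. Named genes are all members with a call, all tested subunits of CaMKII, PKA, AMPK, PKC, calcineurin and the PP1 and PP2A catalytic subunits, the brightest uncalled member of each family, and up to 3 genes per direction and pathway list. Members and lists were chosen with earlier results of these data known. On simulated arrays of 6705 probe sets, 200 were changed, all with means well above the floor. The procedure recovered 0% of 1.5-fold, 82% of 2-fold and 97.5% of 3-fold changes. In the data 1165 probe sets were called, some with folds under 1.5, and many members were dimmer. The simulated shares thus do not give the sensitivity for these members. Alternatives were the floor, the filter, the scaling, the trend, a replicate block and each array left out. Plots used Python 3.11.15 and matplotlib 3.10.9. The number of arrays limits the precision.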

Additional observations from a re-analysis of the deposited data

How the results depend on the processing

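Over all probe sets, 659 to 1260 were called with 1 array left out, lowest without uninjured array 3 (276 higher, 383 lower) and, next, contused array 2 (723). The ranges were 3 to 8 for Camk, 3 to 4 for Prka, 3 to 5 for Prkc and 3 to 7 for Ppp. Under a floor raised to the 50th percentile, Camk had 3 calls and Ppp 5, and Ppp also had 5 with quantile normalization. Counted once per gene, Camk had 2 calls among 9 genes and Prkc 2 among 6, against 16.9% of all singly named genes. The labels do not say whether the replicate numbers pair the arrays. Correlations of same-numbered deviations were 0.04, 0.22 and -0.24, too few to decide whether they do. With the replicate block, 1200 probe sets were called, Prka had 3 calls, Camk 6 (the dimmer Camk2g probe set gained a call) and Ppp 6. No Prka or Ppp probe set was called higher with that block. Of the 22 member calls, 12 held in every alternative that tested them. They were Camkk1, 1 Camkv, 1 Camk2d, the brighter Prkaca and Prkacb, Prkar1b, 1 Prkcb, both Prkcd, Ppp3ca, 1 Ppp3r1 and the brighter Ppp2r2b. Camkv, Camk2d, Prkacb, Prkcb and Ppp3r1 each also had a tested probe set without a call. The Camk2d and Prkcb probe sets were not tested with the filter of all 6 arrays, nor that of Camk2d with the higher floor. None of the 22 changed direction. Changes near 0 that were never called did: Camk2d -0.11 without a floor and 0.0225 (another probe set) with quantile normalization, Ppp1cb 0.0455 with scaling to one trimmed mean and 0.11 with quantile normalization, Prkag1 0.0124 and 0.0068 under the same 2 settings, and the Ppp1ca minus Ppp1cc shift -0.0573 with quantile normalization. With 1 array left out, uncalled changes ran from -0.0744 to 0.13 and -0.125 to 0.0052 (Camk2d), -0.31 to 0.0892 (Prkce), -0.221 to 0.0105 (Ppp1ca), -0.315 to 0.0472 (Ppp1cc), -0.115 to 0.148 (Ppp1cb) and -0.0056 to 0.189 (Prkch). The pair shifts ran from -0.222 to 0.0206 (Camk2b minus Camk2g), -0.0293 to 0.113 (Prkaca minus Prkacb) and -0.125 to 0.162 (Ppp1ca minus Ppp1cc). The cause was not tested. Signals near the floor limit what dim probe sets can show.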

Other observations

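Further within-array comparisons were chosen after the values were seen and carry no test. The log2 difference of Prkar1b minus Prkar1a, the neuronal and the general RI subunit of PKA, was 0.81 on average on the uninjured and -0.12 on the contused arrays, a shift of -0.94 ± 0.14 (SE). That of Prkcb minus Prkcd, each by its brightest probe set, was 0.52 on the uninjured and -1.07 on the contused arrays, a shift of -1.58 ± 0.27. The size of this shift depends on the probe sets used. The other tested probe sets had log2 changes of -1.32 and -0.13 for Prkcb and 1.56 for Prkcd. In both, the groups did not overlap.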
